A study of Mus musculus with 8 samples.

Results

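Matrix proteases and their inhibitors were taken from the deposited expression table by gene symbol: every Mmp, Adam, Adamts and Adamtsl gene followed by a digit, and Timp1 to Timp4. The rule, which used no measured value, found 84 of 24630 genes. Of these, 31 reached a mean of 1 RPKM (reads scaled to gene length in kilobases and to library size) over the 8 libraries as deposited, and 53 lay below. The RNA came from quiescent muscle stem cells (satellite cells) of the limb muscles of male C57BL/6 mice, young animals of 4 months (n = 4) and old animals of 22 months (n = 4), with 1 animal per library. Both groups were sorted by surface markers (CD45-, CD31-, Sca1-, VCAM+) and snap-frozen. No allele or treatment besides age is given for either group.

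Matrix metalloproteinases (MMPs) are zinc enzymes, made as inactive proforms, that cut collagens, laminins, fibronectin and other matrix proteins. ADAMs are membrane-bound relatives, some of which release the outer part of receptors and ligands from the cell surface, and ADAMTS enzymes are secreted and cut proteoglycans and procollagens. TIMPs bind and block these enzymes, and in muscle the balance shapes the basal lamina under which the stem cells rest.

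The 4 young libraries held 1.91 to 6.56 M reads in genes (M, mega) and the 4 old libraries 20.1 to 24.9 M. With the library sizes of the deposited RPKM, 3 reads over 1 kb of gene were worth 0.403 to 0.959 RPKM in young and 0.157 to 0.181 RPKM in old libraries. On library totals, the scale used below, these limits lie higher in young and lower in old libraries. These limits cover counting error only. Values are given as RPKM on library totals, a share of all reads in genes. The deposited RPKM used library sizes of 1.14 to 1.64 times the reads in young and 0.678 to 0.849 times the reads in old libraries. The median log2 fold change (old minus young) of the 11096 genes tested was -0.19 on library totals but 0.36 as deposited. The gap between these medians follows from the library sizes, so a direction can differ between the scales. The median on library totals also depended on which genes were included. When the filter was raised to 5 RPKM, it was -0.0071 over 5703 genes. Why the genes below that level pulled it down was not tested. Olfactory, vomeronasal and taste receptor genes, 1449 genes of families not known to act in muscle, were pooled as their summed reads over their summed length. Their pooled level was 0.205 to 1.00 RPKM in young and 0.0165 to 0.0378 RPKM in old libraries. This is called the low-level signal. In young libraries 1 to 4 it was 0.402, 1.00, 0.205 and 0.363 RPKM, so its upper limit rests on young library 2. With this signal subtracted, a choice made after seeing the data, the median log2 fold change of the 11096 genes on library totals was -0.065. All 11 satellite cell markers, among them Pax7, Myf5, Calcr and Vcam1, reached 1 RPKM on average, and they summed to 3339 to 4280 RPKM in young and 3383 to 4143 RPKM in old libraries. On library totals Vcam1, a marker of the sort, and Myod1 were called higher in old animals and Pax7, Calcr, Cdh15 and Chodl lower. Of all tested genes, 7.11% were called higher and 20.5% lower on that scale. With the filter at 5 RPKM, 701 of 5703 genes were called higher and 714 lower. The excess of lower calls among all tested genes thus depends on those below 5 RPKM. On the deposited scale Vcam1, Myod1, Cxcr4 and Myf5 were called higher and only Calcr lower. There Pax7, Cdh15 and Chodl had log2 fold changes of -0.031, -0.18 and -0.11. The part of these markers in the results was not tested. In bulk RNA, fewer cells of a type and less RNA per cell cannot be told apart.

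Among the 31 tested genes, Mmp3 and Timp1 rose in old animals on both scales, and 10 genes fell on library totals (limma on log2(RPKM + 1), adjusted p under 0.05). The genes that fell were Timp4, Mmp11, Adam10, Adam28, Adamts5, Adamts10, Adamts12, Adamts14, Adamts20 and Adamtsl4, of which Adam10, Adamts5 and Adamtsl4 had positive fold changes on the deposited scale. The remaining 19 genes did not pass the test. Over all tested genes 7.11% were called higher and 20.5% lower. The old libraries lay wholly above the young for 2 of the 31 genes and wholly below for 9, against 7.85% and 23.1% of all tested genes. The median log2 fold change of the 31 genes was -0.29 on library totals but 0.26 as deposited. On the deposited scale 12 genes were higher and 3 lower, against 42.1% and 5.34% of all tested genes. Only Mmp3 and Timp1 were called higher on both scales, and Adam28, Adamts12 and Adamts20 were called lower on both. On the deposited scale, with replaced zeros set back to 0, the old means of Adam28, Adamts12 and Adamts20 were 0.206, 0.941 and 0.762 RPKM. They reached the mean of 1 RPKM over the 8 libraries only through the young libraries, where they were higher. Without the 2 young libraries of lowest depth, young 1 and young 2, Mmp3 and Timp1 were still called higher and Adamts14 and Adamts20 alone were called lower. With the low-level signal subtracted, a choice made after seeing the data, Mmp3 and Timp1 were called higher and Adam10, Adamts10, Adamts12 and Adamts20 lower. With reads thinned to equal totals, 5 genes were called lower (Adam10, Adam28, Adamts10, Adamts12 and Adamts20) and Mmp19 joined Mmp3 and Timp1.

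**Figure D1:**
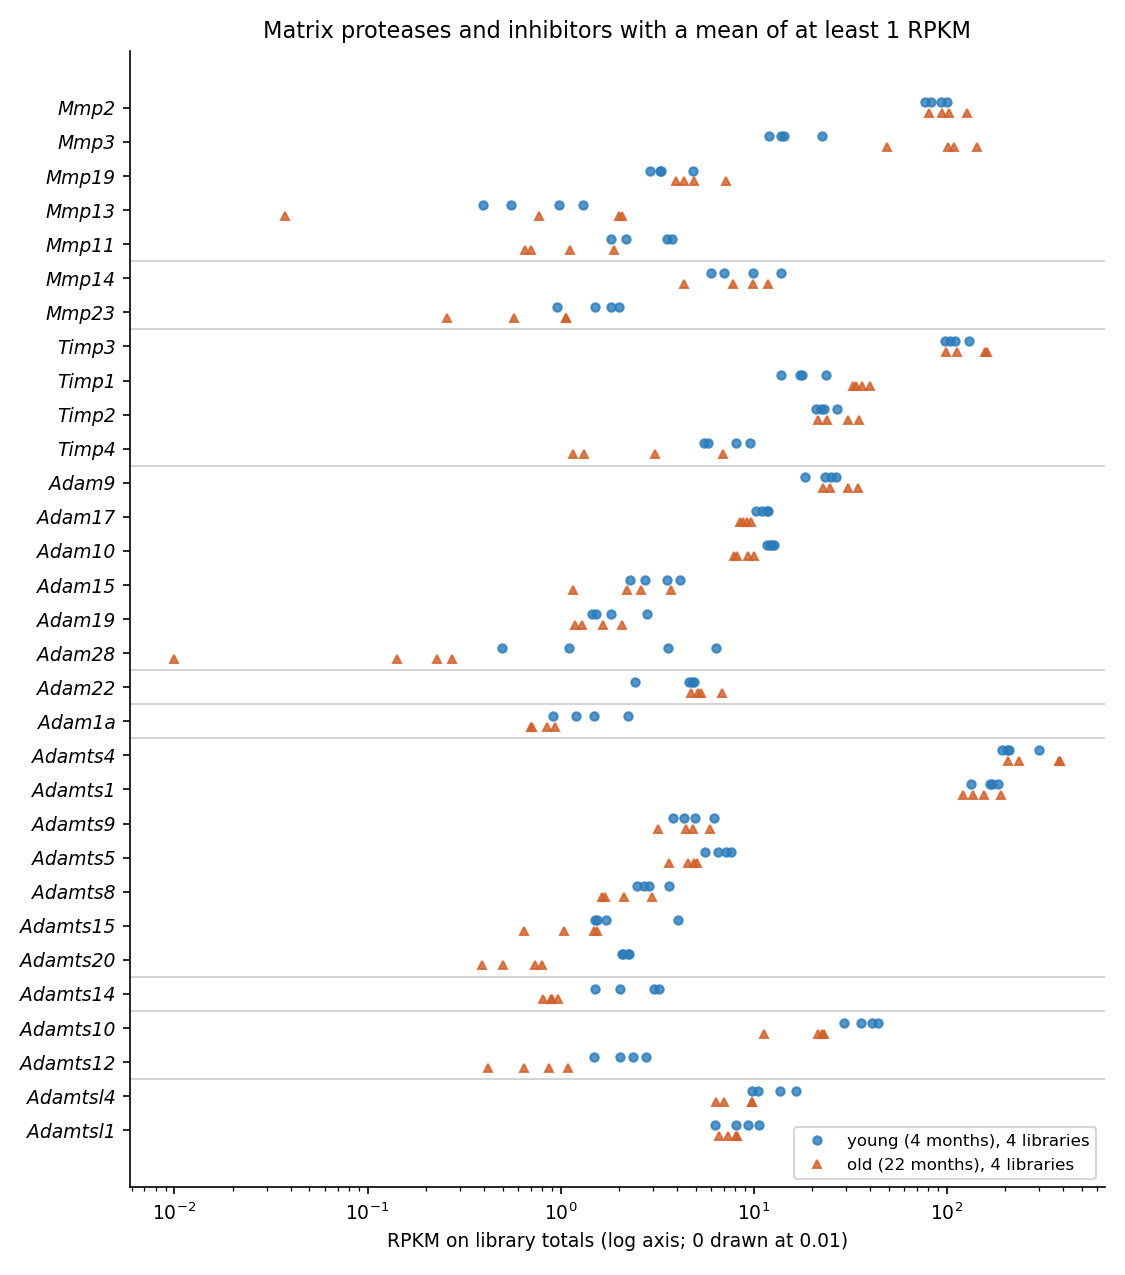
Level of each of the 31 tested genes in each library, as RPKM on library totals on a log axis (circles, 4 young libraries; triangles, 4 old libraries), with grey lines between groups of related genes. Adamts4 has the highest mean at both ages, and the old libraries stand apart from the young above for Mmp3 and Timp1 and below for genes such as Adamts20 and Adamts10.

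Mmp3, or stromelysin-1, is a secreted protease that cuts basement membrane proteins and proteoglycans and activates the proforms of other MMPs. The gene lies at chr9:7445822-7455975 on the plus strand (GENCODE M21 on GRCm38), inside a cluster of 10 Mmp genes that spans 427 kb. The 100 bases before the annotated start of Mmp3 and of 3 cluster neighbours are shown because the cluster shares promoter features while its expression is uneven, and those before Timp1, the other gene that rose, are shown for contrast. The windows are from RefSeq, build GRCm38.p6, plus strand: chr9:7445722-7445821 for Mmp3, chr9:7272414-7272513 for Mmp13, chr9:7502242-7502341 for Mmp10, chr9:7464041-7464140 for Mmp1a and chrX:20870066-20870165 for Timp1. Capitals mark matches to TGANTCA, the letters to which AP-1 factors bind, and to TATAAA.
Mmp3: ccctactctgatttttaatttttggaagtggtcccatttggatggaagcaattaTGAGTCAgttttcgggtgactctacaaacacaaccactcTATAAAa
Mmp13: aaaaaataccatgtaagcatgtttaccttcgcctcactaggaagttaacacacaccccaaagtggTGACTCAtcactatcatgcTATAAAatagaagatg
Mmp10: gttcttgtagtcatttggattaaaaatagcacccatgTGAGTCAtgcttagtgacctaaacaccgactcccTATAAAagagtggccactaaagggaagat
Mmp1a: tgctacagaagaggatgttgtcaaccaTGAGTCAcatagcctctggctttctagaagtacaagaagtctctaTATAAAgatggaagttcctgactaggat
Timp1: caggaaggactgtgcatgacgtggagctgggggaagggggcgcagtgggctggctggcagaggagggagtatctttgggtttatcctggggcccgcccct

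Mmp3, Mmp13, Mmp10 and Mmp1a each hold both motifs within these 100 bases, and Timp1 holds neither. Both motifs were searched on both strands, over the 250 bases before each start, and a match to TGANTCA cannot overlap one to TATAAA. In the cluster 8 of 10 genes had TGANTCA, 7 had TATAAA and 7 had both. Of the 43 other matched genes of the 84, 4 had TGANTCA and 1 had both. Over all 32851 RefSeq windows 6.749% held TGANTCA, 12.37% held TATAAA and 1.215% held both. Of the 53 genes with a window, some had more than 1 start, and a gene was counted when any of its windows matched. The shares over all RefSeq windows count each window by itself, so they are not in the same unit as the counts of genes. Among the 9 matched genes called up or down with age, Mmp3 was the 1 with TGANTCA, and Adam28, Adamts10 and Adamts5 had no window. A match is a run of letters and not evidence of binding.

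In young libraries 1 to 4, Mmp3 had 12.0, 22.6, 13.9 and 14.3 RPKM on library totals. In old libraries 1 to 4 it had 101, 49.2, 108 and 143 RPKM. Every old library lay above every young one, and old library 2 was the lowest of the old. The means were 15.7 ± 4.74 (young) and 101 ± 38.9 RPKM (old) (SD, n = 4 each), from 447 and 15695 reads. The log2 fold change was 2.54 ± 0.30 (SE, adjusted p = 0.000943, limma) on library totals, against 3.21 as deposited. The call was kept without each library in turn, with log2 fold changes from 2.34 to 2.85. Mmp3 passed from the ninth to the fifth place among the 31 genes by level, and its share of the summed RPKM of all 84 genes went from 1.84% ± 0.550 to 10.2% ± 4.13 (SD, n = 4 each).

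Within the chr9 cluster only Mmp3 and Mmp13 reached a mean of 1 RPKM. Mmp13, collagenase-3, had 0.555, 0.978, 1.31 and 0.394 RPKM in the young and 0.0373, 2.00, 0.768 and 2.07 RPKM in the old libraries, from 38 and 297 reads in all. The groups overlapped, and the log2 fold change was 0.19 ± 0.36 (SE, adjusted p = 0.706, limma). Mmp8, the neutrophil collagenase, had 0.440 to 4.31 RPKM in young and 0 to 0.329 RPKM in old libraries. Mmp10, the closest relative of Mmp3 in the cluster, had 9 reads in all young and 10 reads in all old libraries, or 0.405 and 0.0619 RPKM on average. Mmp1a (annotated in GENCODE M21 as a polymorphic pseudogene) and Mmp1b are related copies, so reads could be split between them, and each had 1 read over the 4 old libraries. The young means of Mmp10, Mmp1a (0.493 RPKM) and Mmp1b (0.561 RPKM) lay within the range of the young low-level signal, 0.205 to 1.00 RPKM, and that of Mmp8 (1.80 RPKM) above it. The part of that signal in these values was not tested. The old libraries of Mmp3 thus stood at 49.2 RPKM or more while the old means of its 2 nearest neighbours downstream, Mmp1a and Mmp10, were at 0.0054 and 0.0619 RPKM.

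**Figure D2:**
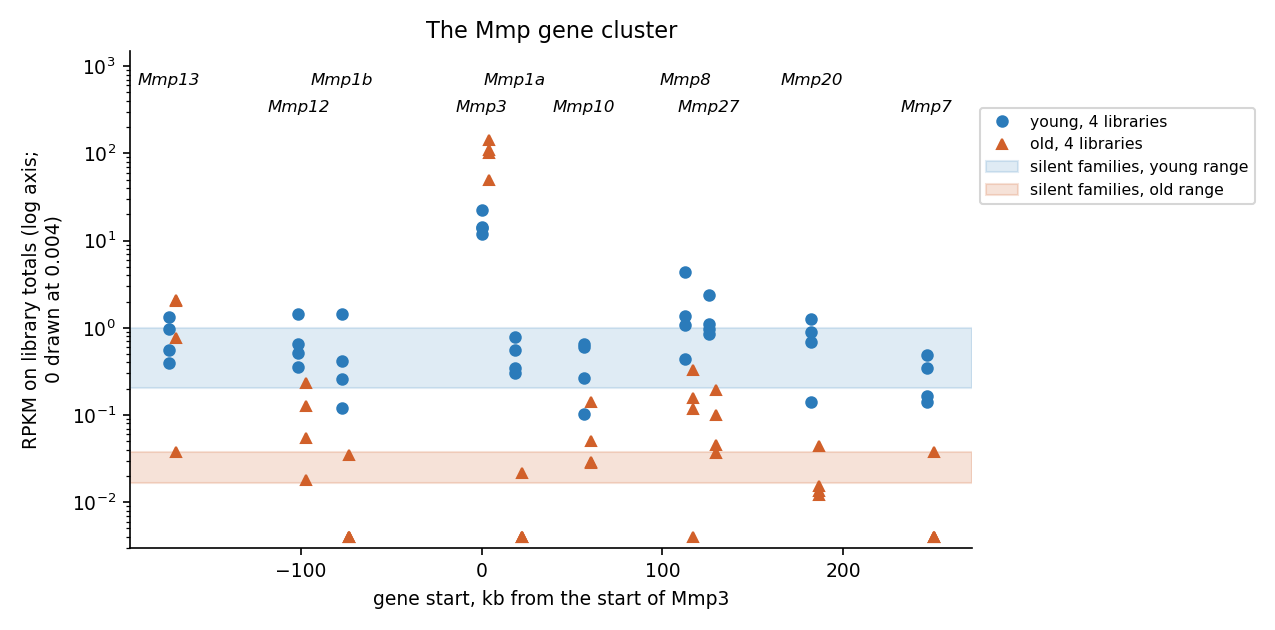
RPKM on library totals (log axis, 0 drawn at 0.004) of the 10 Mmp genes of the chr9 cluster against distance from the start of Mmp3 in kb (circles, 4 young libraries; triangles, 4 old libraries, set 4 kb to the right). Shaded bands give the range, in young and in old libraries, of the pooled level of 1449 olfactory, vomeronasal and taste receptor genes. Mmp3 is the only gene of the cluster whose old libraries all lie above its young ones.

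Mmp2, or gelatinase A, cuts denatured collagen and collagen IV. It was the most abundant MMP, with 77.2, 92.8, 100 and 82.4 RPKM in the young and 127, 80.5, 93.7 and 102 RPKM in the old libraries. The groups overlapped on library totals, where the log2 fold change was 0.18 ± 0.15 (SE, adjusted p = 0.388, limma), while on the deposited scale it was 0.87 and was called higher. In old animals Mmp3 reached the level of Mmp2: the ratio of Mmp3 to Mmp2 within a library was 0.138 to 0.244 in young and 0.611 to 1.40 in old animals. Ratios within a library do not depend on the scaling. Mmp14, the membrane-bound activator of proMMP2, had 6.99, 13.9, 9.90 and 5.97 RPKM in the young and 9.91, 4.33, 7.81 and 11.9 RPKM in the old libraries. Its log2 fold change was -0.11 ± 0.29 (SE, adjusted p = 0.79, limma) on library totals, against 0.51 as deposited. The sign of the Mmp14 value was positive without young library 2 (0.09) or old library 2 (0.14).

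Mmp11, or stromelysin-3, which is activated inside the cell by furin, had 3.75, 1.83, 3.56 and 2.19 RPKM in the young and 1.12, 0.704, 1.89 and 0.654 RPKM in the old libraries. Only old library 3 reached into the young range. Mmp11 fell by 0.87 ± 0.24 on the log2 scale (SE, adjusted p = 0.0232, limma), and by 0.47 on the deposited scale without passing there. The call was lost without young 1, young 3, old 2 or old 4 (adjusted p = 0.0642 to 0.0688). Mmp9, or gelatinase B, did not reach 1 RPKM, with 1.05, 1.03, 0.862 and 0.844 RPKM in the young and 0.310, 0.0227, 0.198 and 0.163 RPKM in the old libraries, from 54 and 52 reads. Its young mean of 0.947 RPKM lay within the young range of the low-level signal (0.205 to 1.00 RPKM) and its old mean of 0.173 RPKM above the old range (0.0165 to 0.0378 RPKM). In each young library Mmp9 was above the signal of that same library, narrowly in young 2 (1.03 against 1.00 RPKM). The part of that signal was not tested. Among the other tested MMPs, Mmp19 had means of 3.58 and 5.11 RPKM in young and old and was called higher as deposited but not on library totals, and Mmp23 1.57 and 0.740 RPKM.

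Timp1, a broad MMP inhibitor, lies at chrX:20870166-20874735 on the plus strand. It had 13.8, 23.6, 17.9 and 17.4 RPKM in the young and 40.0, 36.3, 32.5 and 33.8 RPKM in the old libraries, from 265 and 2800 reads. Every old library lay above every young one. Timp1 rose by 0.96 ± 0.15 on the log2 scale on library totals (SE, adjusted p = 0.00341, limma) and by 1.62 on the deposited scale, and the call was kept without each library in turn. Of the 31 genes, Timp1 had the pattern most like that of Mmp3 over the 8 libraries (Spearman rho 0.79), followed by Timp2 (0.76) and Adam22 (0.62). These values are a description over libraries that also differ in age and depth. Within the 4 young libraries the rho of Timp1 with Mmp3 was 0.8, and within the 4 old libraries it was -0.6. The young and old values were 1 and 0.8 for Timp2, and -0.6 and 0.8 for Adam22.

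Timp2, which also takes part in the activation of proMMP2 by Mmp14, had 21.1, 27.1, 22.2 and 23.1 RPKM in the young and 30.8, 21.4, 24.0 and 35.2 RPKM in the old libraries. Timp3, which stays bound to the matrix and also blocks Adam17, Adamts4 and Adamts5, had 104, 98.2, 129 and 110 RPKM in the young and 157, 113, 161 and 98.7 RPKM in the old libraries. Both overlapped between the ages on library totals, with log2 fold changes of 0.22 and 0.24 that did not pass, and both were called higher on the deposited scale (0.89 and 0.92). Timp3 shares 1733 of its 8144 exonic bases with Syn3 on the opposite strand, and the library kit does not mark strand, so reads there cannot be told apart. In GENCODE M21, 11 of the 31 genes share more than 50 exonic bases with another gene, among them Timp4 with Syn2, Adam17 with Iah1 and Mmp11 with Chchd10. Mmp2, Mmp3, Timp1 and Adam10 do not.

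Timp4 had 8.12, 5.77, 9.55 and 5.55 RPKM in the young and 3.07, 1.15, 6.95 and 1.32 RPKM in the old libraries. Old library 3 lay within the young range. Timp4 fell by 1.18 ± 0.36 on the log2 scale (SE, adjusted p = 0.0357, limma), and by 0.65 on the deposited scale without passing there. The call held only without old 3 (adjusted p = 0.00632) and was lost without each of young 1, young 2, young 3, young 4, old 1, old 2 and old 4 (adjusted p = 0.0578 to 0.115).

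The balance of Mmp3 to its inhibitors differed between the ages within libraries. The ratio of Mmp3 to Timp1 was 0.857 ± 0.0784 in young and 2.86 ± 1.22 in old animals (SD, n = 4 each), with ranges of 0.778 to 0.961 and 1.35 to 4.24. The ratio of Mmp3 to the sum of the 4 TIMPs was 0.0993 ± 0.0320 and 0.514 ± 0.238, also without overlap. The ratio of Timp1 to Timp2 was 0.655 to 0.869 in young and 0.960 to 1.69 in old animals, without overlap. By contrast, the ratio of Mmp2 to Timp2, 3.79 ± 0.495 and 3.67 ± 0.538, overlapped. These ratios share genes with the tests above and are given without a test. They compare RNA per length of gene and say nothing of active enzyme.

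**Figure D3:**
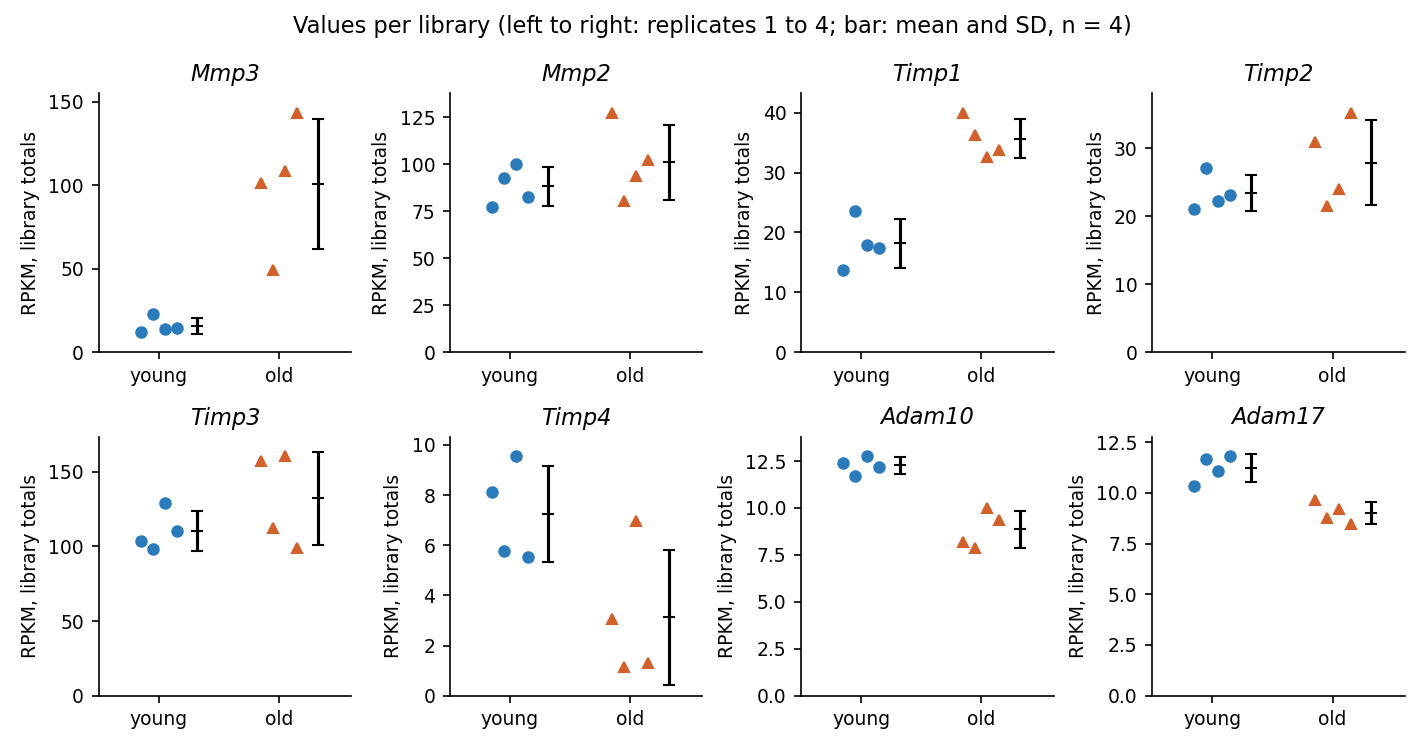
RPKM on library totals of Mmp3, Mmp2, the 4 TIMPs, Adam10 and Adam17 in each library, with points from left to right for replicates 1 to 4 and a bar for the mean and SD (n = 4). Old libraries of Mmp3 and Timp1 lie wholly above the young ones, and those of Adam10 and Adam17 wholly below on this scale, whereas on the deposited scale the log2 fold changes of Adam10 and Adam17 were 0.20 and 0.34.

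Adam10, the sheddase that makes the first cut in ligand-bound Notch, had 12.4, 11.7, 12.8 and 12.2 RPKM in the young and 8.17, 7.89, 10.0 and 9.35 RPKM in the old libraries. No old library reached the young range. Adam10 fell by 0.43 ± 0.11 on the log2 scale on library totals (SE, adjusted p = 0.0178, limma) and stood 0.20 higher on the deposited scale (adjusted p = 0.344). The call was lost without old 2 (adjusted p = 0.0526). Adam17, which releases TNF and ligands of the EGF receptor, had 10.3, 11.7, 11.1 and 11.8 RPKM in the young and 9.67, 8.75, 9.19 and 8.45 RPKM in the old libraries. The libraries did not overlap, but the log2 fold change of -0.29 ± 0.10 did not pass (SE, adjusted p = 0.0615, limma), and on the deposited scale it was 0.34 (adjusted p = 0.0852). For both sheddases the direction therefore depends on the scaling. The ratio of Adam10 to Adam17 was 1.10 ± 0.0947 in young and 0.986 ± 0.132 in old animals and overlapped. The ratio of Adam17 to its inhibitor Timp3 was 0.103 ± 0.0141 in young and 0.0705 ± 0.0134 in old animals, with no old library above the lowest young one.

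Adam28, known from lymphocytes and epithelia, had 1.11, 6.39, 0.497 and 3.58 RPKM in the young and 0.230, 0.142, 0 and 0.274 RPKM in the old libraries, from 143 and 51 reads. Old library 3 held no read of it. Adam28 fell by 1.48 ± 0.44 on library totals (SE, adjusted p = 0.0306, limma) and by 1.15 on the deposited scale. The young values ranged widely, and the highest was in young 2, the library with the lowest depth and the highest low-level signal (1.00 RPKM). The part of that signal in the result was not tested beyond subtracting it, after which Adam28 was not called. The call was also lost without young 2, young 4 or any of the 4 old libraries (adjusted p = 0.0506 to 0.0897). The other sheddases, with young and old means in RPKM, were Adam9 at 23.4 and 28.3, Adam15 at 3.19 and 2.42 and Adam19 at 1.90 and 1.55, and were not called on library totals. Adam9 was called higher as deposited (0.92, against 0.26 on library totals), and the signs of Adam15 (-0.33 and 0.16) and Adam19 (-0.18 and 0.26) turned between library totals and the deposited scale. Adam22, which has no active site and binds LGI proteins in nerve cells, had means of 4.18 and 5.52 RPKM and was called higher on the deposited scale only. Adam1a had 1.46 and 0.799 RPKM, values that go with a gene length of 3496 bases. Its GENCODE M21 model has 7508 exonic bases and shares most of them with other genes. Overlap over the shorter length was not measured.

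The ADAMTS enzymes that cut aggrecan, versican and other proteoglycans made up 47.5% ± 3.26 of the summed RPKM of the 84 genes in young and 47.0% ± 4.70 in old animals (SD, n = 4 each). Adamts4, or aggrecanase-1, was the highest of the 31 genes in both ages, with 210, 192, 301 and 205 RPKM in the young and 387, 236, 380 and 207 RPKM in the old libraries. Adamts1 was the next, with 170, 167, 184 and 133 RPKM in the young and 191, 121, 155 and 136 RPKM in the old libraries. Neither differed beyond its spread on library totals, with log2 fold changes of 0.38 ± 0.22 and -0.13 ± 0.16 (SE, adjusted p = 0.221 and 0.555, limma), and both were called higher on the deposited scale (1.07 and 0.56). Together with Timp3 and Mmp2 they held 68.5% of the sum in young and 69.4% in old animals. The order of mean levels was Adamts4, Adamts1, Timp3 and Mmp2 at both ages. The libraries of Adamts4 lay above those of Adamts1 at both ages and those of Adamts1 above those of Timp3 in young animals, while Timp3 and Mmp2 overlapped at both ages and Adamts1 and Timp3 in old animals.

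Adamts5, or aggrecanase-2, had 6.56, 7.17, 7.65 and 5.56 RPKM in the young and 4.58, 3.62, 4.90 and 5.06 RPKM in the old libraries. It fell by 0.48 ± 0.14 on library totals (SE, adjusted p = 0.0249, limma) and stood 0.10 higher on the deposited scale. The call was lost without young 1, young 3, old 1 or old 2 (adjusted p = 0.0505 to 0.0695). Adamts20, which cuts versican, had 2.27, 2.09, 2.24 and 2.07 RPKM in the young and 0.736, 0.393, 0.500 and 0.796 RPKM in the old libraries. The gap between the groups was wide against their spread. Adamts20 fell by 0.99 ± 0.18 (SE, adjusted p = 0.00484, limma), and it also passed as deposited (-0.63). The remaining genes of this group were not called on library totals, with young and old means of 4.83 and 4.61 RPKM for Adamts9, 2.93 and 2.11 RPKM for Adamts8 and 2.20 and 1.18 RPKM for Adamts15. As deposited, Adamts9 was called higher (0.51, adjusted p = 0.0112, limma, against -0.062 on library totals), and the sign of Adamts8 also turned (-0.35 on library totals, 0.14 as deposited).

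Adamts10, which binds fibrillin, had 41.0, 29.2, 43.7 and 36.1 RPKM in the young and 23.0, 11.3, 21.4 and 22.6 RPKM in the old libraries, from 3590 and 9284 reads. It was the most abundant gene that fell. No old library reached the young range, and old library 2 stood apart from the other old ones. Adamts10 fell by 0.94 ± 0.22 on library totals (SE, adjusted p = 0.0127, limma) and by 0.27 on the deposited scale without passing there (adjusted p = 0.385). The call was kept without each library in turn. The ratio of Adamts10 to Adamts1 was 0.231 ± 0.0402 in young and 0.130 ± 0.0306 in old animals and did not overlap.

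Adamts12, which cuts cartilage oligomeric matrix protein (COMP), had 2.38, 2.77, 2.03 and 1.49 RPKM in the young and 0.871, 0.419, 1.09 and 0.648 RPKM in the old libraries. It fell by 0.85 ± 0.20 (SE, adjusted p = 0.0143, limma), and it also passed as deposited (-0.47). Adamts14, which removes the amino-terminal propeptide of procollagens, had 3.21, 1.51, 3.05 and 2.03 RPKM in the young and 0.968, 0.890, 0.807 and 0.897 RPKM in the old libraries. It fell by 0.84 ± 0.20 (SE, adjusted p = 0.0140, limma), and by 0.44 on the deposited scale without passing there. Groups did not overlap for either gene, and both calls were kept without each library in turn.

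Adamtsl4, an ADAMTS-like protein of microfibrils without a protease domain, had 13.6, 9.84, 16.5 and 10.5 RPKM in the young and 9.84, 6.35, 9.74 and 7.04 RPKM in the old libraries. The highest old and the lowest young library nearly met. Adamtsl4 fell by 0.56 ± 0.19 on library totals (SE, adjusted p = 0.0482, limma) and stood 0.071 higher on the deposited scale. The call was lost without young 1, young 3, young 4, old 2 or old 4 (adjusted p = 0.0673 to 0.132). Adamtsl1 had means of 8.59 and 7.58 RPKM and was not called on library totals (-0.14), but was called higher as deposited (0.48, adjusted p = 0.0167, limma).

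**Figure D4:**
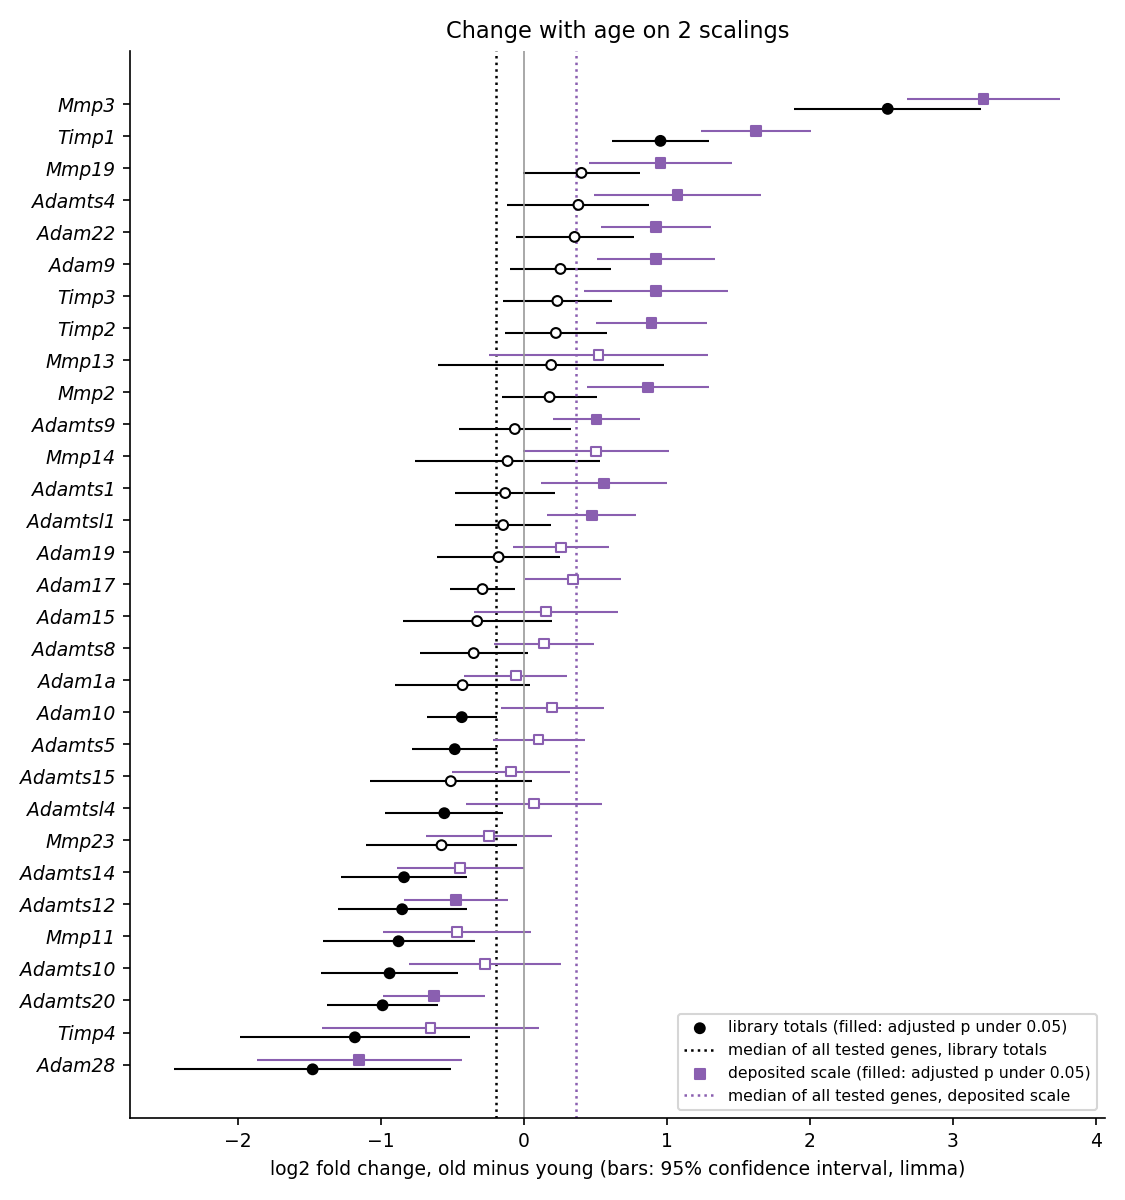
Log2 fold change, old minus young, of the 31 tested genes on library totals (circles) and on the deposited scale (squares), with 95% confidence intervals from limma; filled symbols passed an adjusted p of 0.05, and dotted lines mark the median of all tested genes (-0.19 and 0.36). Mmp3 and Timp1 lie to the right of 0 on both scales, while Adam10, Adam17, Adamts5, Adamtsl4 and Mmp14, among others, lie on opposite sides of 0 on the 2 scales.

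The 53 genes below 1 RPKM had a median young mean of 0.775 RPKM and a median old mean of 0.0887 RPKM. All 53 had the higher mean in young animals, and for 41 the old libraries lay wholly below the young. The same held for 59% of all 12365 genes below 1 RPKM with any read. The highest low-level signal of a young library, 1.00 RPKM in young 2, was at or above the young mean of 39 of the 84 genes. The highest of an old library, 0.0378 RPKM, was at or above the old mean of 17. Against the mean signal over the libraries of each group, 0.493 RPKM in young and 0.0277 RPKM in old, these counts were 14 and 13. No test was made of the 53 genes, and the part of the low-level signal in their values was not tested. They comprise 11 secreted MMPs, 5 membrane-anchored MMPs, 3 sheddases, 2 neural ADAMs without an active site, 2 procollagen-processing and 7 other ADAMTS enzymes, 3 ADAMTS-like genes and 20 further ADAMs, most of them known from testis. Their young means ran from 0.0952 RPKM (Adam39) to 2.07 RPKM (Adamts6), and their old means from 0 (Adam25) to 0.781 RPKM (Adamtsl3). Just inside the threshold of 1 RPKM stood Adam1a and Mmp23 (deposited means of 1.07 each), and just outside it Adamtsl3 (0.998) and Adam8 (0.897). Adam6a and Adam6b, and Adam26a and Adam26b, are pairs of related copies whose reads could be split.

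**Figure D5:**
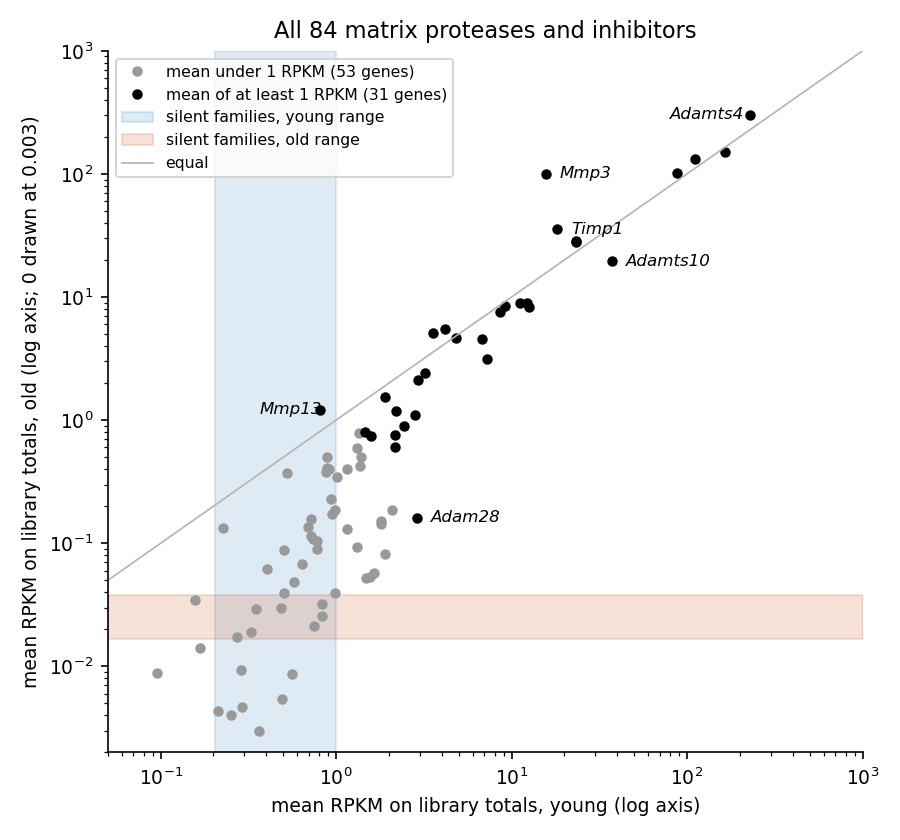
Mean RPKM on library totals in old against young animals for all 84 genes (log axes, 0 drawn at 0.003), with the line of equal values (black, at least 1 RPKM; grey, below). Shaded bands give the range over young and over old libraries of the pooled level of the 1449 receptor genes. The genes below 1 RPKM all lie under the line, and Mmp3 and Timp1 lie above it.

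Genes that act with these enzymes came from 5 lists, whose counts stand against 7.11% higher and 20.5% lower and a median log2 fold change of -0.19 over all tested genes on library totals. Of 14 tested activators and cofactors, 1 rose and 2 fell (median -0.17), shares near or below those of all genes. Plat, the tissue plasminogen activator, rose by 0.88 ± 0.18 (SE, adjusted p = 0.00791, limma; 1.56 on the deposited scale). Frmd8, a binding partner of the iRhoms that bring Adam17 to the surface, fell by 0.59 ± 0.17 (SE, adjusted p = 0.0293, limma; -0.09 on the deposited scale), and its call was lost without young 2, young 3, old 2, old 3 or old 4 (adjusted p = 0.0589 to 0.083). Of 9 tested inhibitors and clearance receptors outside the TIMPs, 3 rose and 1 fell (median -0.045). Serpine2, or protease nexin-1, an inhibitor of thrombin and plasminogen activators, rose from 10.2 ± 1.26 to 25.5 ± 1.76 RPKM (SD, n = 4 each; log2 fold change 1.25, adjusted p = 0.000526, limma; 1.89 on the deposited scale). Serpinb2 fell by 0.84 ± 0.24 (SE, adjusted p = 0.0282, limma; -0.41 on the deposited scale), a call lost without young 1, young 4, old 1 or old 3 (adjusted p = 0.0659 to 0.0813). Reck, a membrane-anchored MMP inhibitor, had 2.24 ± 0.718 and 1.51 ± 0.243 RPKM and was not called (-0.35 on library totals, 0.11 on the deposited scale).

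Of 25 tested membrane proteins that are shed by ADAMs or MMPs, 4 rose and 3 fell (median -0.16), against the same 7.11% and 20.5% of all tested genes. Cd44, the hyaluronan receptor, rose from 67.0 ± 18.8 to 162 ± 35.1 RPKM (SD, n = 4 each; log2 fold change 1.28, adjusted p = 0.00353, limma; 1.97 on the deposited scale). Cdh15, or M-cadherin, which joins the stem cell to the fibre, fell from 80.2 ± 8.01 to 44.3 ± 10.0 RPKM (log2 fold change -0.86, adjusted p = 0.0058, limma; -0.18 on the deposited scale). Of 26 tested matrix substrates, 3 rose and 10 fell (median -0.49). Col3a1, a fibrillar collagen chain, fell from 98.8 ± 17.0 to 28.6 ± 5.04 RPKM (log2 fold change -1.75, adjusted p = 0.000472, limma; -1.07 on the deposited scale). Comp, the COMP gene, had 6.16 to 9.87 RPKM in young and 15.6 to 61.1 RPKM in old libraries and rose (log2 fold change 1.75, adjusted p = 0.00614, limma; 2.40 on the deposited scale). Of 11 tested matrix proteases of other families, 3 fell on library totals and 8 were not called (median -0.30). Among them Htra1 fell by 0.93 and Htra3 by 0.89 on the log2 scale (adjusted p = 0.0186 and 0.0117, limma; -0.38 and -0.22 on the deposited scale), and the call of Htra1 was lost without young 2 or young 3 (adjusted p = 0.0549 to 0.0618).

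Markers of other cells are given beside these results, with calls on library totals against 7.11% higher and 20.5% lower over all tested genes. Of 8 tenocyte markers 7 were tested and 6 were called higher, and their summed level was 212 to 331 RPKM in young and 552 to 1674 RPKM in old libraries. Old library 2 was the lowest of the old for that sum as well as for Mmp3 and for 20 of the 31 tested genes. It was also the lowest for the fibroblast, endothelial, lymphocyte, pericyte and smooth muscle, muscle fibre and Schwann cell sums. It was not the lowest for the macrophage and leukocyte, the neutrophil or the satellite cell sums. The tenocyte sum was highest in old library 1 (1674 RPKM) and Mmp3 in old library 4 (143 RPKM). Comp is on both the tenocyte and the substrate list. Fibroblast markers (12 of 12 tested, 1 higher and 1 lower, median log2 fold change -0.48) summed to 1800 to 2341 RPKM in young and 1456 to 2524 RPKM in old libraries. That sum rests mainly on Gsn, with young and old means of 1266 and 1113 RPKM, and on Dcn. Dcn was the marker called higher (455 and 857 RPKM), and Col1a1 the marker called lower (65.6 and 22.5 RPKM). Endothelial markers (7 tested, 2 lower) summed to 73.0 to 79.8 and 30.0 to 67.6 RPKM, and macrophage and leukocyte markers (6 of 9 tested, 6 not called) to 25.0 to 64.0 and 18.7 to 50.3 RPKM. Neutrophil markers, none of 6 reaching 1 RPKM, summed to 2.73 to 7.52 and 0.198 to 0.768 RPKM. Pericyte and smooth muscle markers (7 tested, 2 lower) summed to 214 to 258 and 112 to 246 RPKM. Muscle fibre markers (5 of 7 tested, 5 not called) summed to 140 to 353 and 55.0 to 364 RPKM. The sums were 7.52 to 12.8 and 1.81 to 5.79 RPKM for lymphocyte markers (2 of 6 tested, 1 lower). For Schwann cell markers (4 of 5 tested, 1 higher) they were 22.1 to 27.9 and 16.7 to 34.2 RPKM. Each marker on these lists had at least 1 read in both groups. The part of these cells in the changes of Mmp3, Timp1 and the other genes was not tested.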

How the data were processed

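Messenger RNA of sorted muscle stem cells was sequenced in 8 libraries. Per the labels' protocols, spike-in RNA was added and cDNA was made by oligo(dT) priming with a kit that does not mark strand. The authors deposited 1 table of RPKM values. The submitters' processing notes name edgeR, featureCounts with Subread, STAR and Trim Galore, and the builds mm10 and GRCm38, without settings. Whether the libraries of a group were prepared separately is not stated beyond 1 animal each, so p-values measure the spread between these libraries.

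The deposited RPKM came out as whole reads in 100% of 24630 rows (largest distance from a whole number 0.00826, tolerance 0.003, or 0.03 for 3 rows), so reads per gene and library totals were recovered. In 7124 rows zeros had been replaced by a small value and were set back to 0, and 1169 rows had no read. RPKM was then recomputed on library totals. Old and young were compared with limma 3.58.1 (R 4.3.3, limma-trend) on log2(RPKM + 1), without covariates, for 11096 genes with a deposited mean of at least 1 RPKM, with Benjamini-Hochberg adjustment over all of them and a threshold of 0.05. Fold changes on that scale understate low genes. The deposited RPKM were fitted the same way, with the replaced zeros left as deposited. The steps were tested on simulated data. Alternatives were other scalings, filters and pseudocounts, limma-voom on recovered reads, thinning, a replicate block and leaving out libraries. Replicate numbers do not pair the libraries.

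The members and lists were chosen with earlier results of these data known. Named genes were every member past the threshold, Mmp2, Mmp3, Mmp9, Mmp14, the TIMPs, Adam10 and Adam17 with full values, other members of at least 1 RPKM by their means, and from each list the 2 called genes of largest change plus Reck. Mmp8, Mmp10, Mmp13, Mmp1a and Mmp1b were described further as neighbours of Mmp3, a choice made after their values were seen. Coordinates are from GENCODE M21.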

Additional observations from a re-analysis of the deposited data

Results flagged for a closer look

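Adamts10 in old replicate 2 stood apart from the other old libraries, at 11.3 RPKM on library totals against 21.4 to 23.0 RPKM in the other old libraries. The gap was 0.867 of the whole range of the group. It was the 1 group so marked of 36 groups examined, and chance marks about 1 in 20.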

How the results depend on the processing

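Mmp3 and Timp1 were called higher in each alternative that was run. Besides the 2 genes called higher and 10 called lower on library totals, the deposited scale called 12 higher and 3 lower. The number of lower genes was 4 at a mean of at least 5 RPKM, 51 of all 84 with no filter and 5 with thinned reads. It was 2 without the 2 young libraries of lowest depth, 4 with the low-level signal subtracted (chosen after seeing the data), and 4 to 9 with 1 library left out. Over all 11096 tested genes, 789 were higher and 2280 lower. The deposited scale gave 4668 and 592. The filters change the number of genes tested. At 5 RPKM, 701 of 5703 genes were higher and 714 lower, and with no filter 949 of 23461 were higher and 9423 lower. The number of lower genes was 1349 thinned, 1336 without the 2 young libraries and 1202 with the signal subtracted, and 422 were higher without the 2 young libraries. With 1 library left out, 504 to 886 were higher and 1257 to 2208 lower.

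The sign turned on the deposited scale for Adam10 (0.20), Adam17 (0.34), Adamts5 (0.10), Adamtsl4 (0.071), Mmp14 (0.51) and Reck (0.11), and for Adam15 (0.16), Adam19 (0.26), Adamts1 (0.56), Adamts8 (0.14), Adamts9 (0.51) and Adamtsl1 (0.48), which the different library sizes of that scale produce. Mmp14 also turned with thinned reads (0.023), without young replicate 2 (0.09), without old replicate 2 (0.14) and without the 2 young libraries (0.049), where the cause was not tested, and ran from -0.28 to 0.14 with 1 library left out. With the replicate block, 680 genes were higher and 1673 lower, and of the 31 genes 2 were higher and 9 lower, Adamts5 being lost (adjusted p = 0.0581, limma). Libraries of 1 number correlated at -0.12 to 0.26 in their deviations, so they share only a number. The young libraries limit the detection of genes below 1 RPKM.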
